A study of Mus musculus with 9 samples.

Results

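The comparison described here set hypoxia with added ethanolamine against hypoxia alone in BV2, a line of mouse microglia made to grow without limit. Its members were 6 of the 9 RNA sequencing libraries, 3 with ethanolamine and 3 without, and every gene whose mean over all 9 reached 1 FPKM, which were 11802 of 55335 gene identifiers. FPKM counts sequenced fragments relative to the length of the gene and to all mapped fragments of that library. The supplemented cells were kept for 24 h at 1% oxygen with 100 µM ethanolamine, the hypoxic cells for 24 h at 1% oxygen without it, and control cells, labelled 0 h, entered the filter on levels and the shared estimate of spread and otherwise serve as a level beside the others. All groups carry a wild type label, and their medium was DMEM plus 10% fetal bovine serum, so the supplement came on top of what serum supplies. The study's subject is ethanolamine in diabetic retinopathy, and this comparison asks what the supplement changes in microglia at equal oxygen and time. For the controls a treatment label speaks of adipocyte differentiation; their titles do not, and it was not used.

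Ethanolamine is the head group of phosphatidylethanolamine, a major membrane lipid. In the Kennedy pathway it is phosphorylated by ethanolamine kinase, activated to CDP-ethanolamine by the Pcyt2 enzyme and joined to diacylglycerol, while mitochondria make the same lipid by decarboxylating phosphatidylserine. Phosphatidylethanolamine anchors LC3 proteins on autophagosomes, and microglia, the resident macrophages of brain and retina, answer low oxygen and injury with interleukin-1, chemokines, prostaglandins and matrix proteases.

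The libraries looked like a macrophage line that lacks some microglial markers. Of 20 microglia or macrophage markers 16 had a mean of at least 1 FPKM, with summed levels of 1990.5 to 2026 FPKM with ethanolamine, 1954 to 2141 in hypoxia alone and 1502 to 1769 in control. Of the other 4, the complement genes C1qa and C1qb were listed at 0 in all 9 libraries and C1qc and Aif1 stayed under the level for testing, as did the microglial genes P2ry12 and Tmem119 outside that list. Marker lists of astrocytes, neurons, oligodendrocytes, fibroblasts, lymphocytes and epithelium summed to at most 2.15 FPKM in any library, and the endothelial list rested on 2 genes, Flt1 and Vwf. FPKM sums were 324121 to 370322, 11556 to 11924 genes reached 1 FPKM, and the absolute depth is unknown, with relative depths up to 1.32-fold apart. Supplemented library 1 stood apart from its group on principal component 2, which held 6.21% of the variance, at 3.72 against -17.8 and -21.1 for supplemented libraries 2 and 3, while hypoxia libraries were at 5.65, 15.4 and 12.1. Whether each library was a culture of its own is not stated by the labels, and p-values then measure only the spread between these samples, which may be technical.

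Few genes passed the test, and most of those were lower with ethanolamine. Tested on log2(FPKM + 0.5) with limma, 67 of 11802 genes (0.568%) passed an adjusted p of 0.05, of which 53 (0.449%) were lower and 14 (0.119%) higher with ethanolamine. The log2 changes given here are on that scale and understate the change of genes with low values. The median change of all tested genes was 0.01, and 46.7% lay below 0. Changes were small: 9 of the lower genes and none of the higher ones moved by at least 1 on the log2 scale, and the smallest change that passed was 0.31. In all 67 genes the 3 supplemented libraries lay wholly on 1 side of the 3 hypoxia libraries, a separation shown by 1318 lower (11.2%) and 1236 higher (10.5%) of all tested genes. Counts without overlap in the lists below are to be read beside these shares, and counts above or below 0 beside the 46.7%. Of the 67, 54 were protein coding. The count depended on single libraries: without supplemented library 1, 2 or 3 it was 22, 5 or 12, without hypoxia library 1, 2 or 3 it was 23, 3 or 0, and without control library 1, 2 or 3 it was 38, 32 or 23. Of the 67, 15, 2 or 8 still passed without supplemented library 1, 2 or 3, and 17, 3 or 0 without hypoxia library 1, 2 or 3. In a fit of the 6 hypoxic libraries alone 6 genes passed, all lower, of which 4 were among the 67, Usf3 and Prss46 included, and Il1b was at a limma adjusted p of 0.0584. With the replicate number of the titles as a block 0 genes passed, and the labels do not say whether equal numbers belong together. Of the 67 genes, 6 reached the level for testing only through the hypoxia libraries, where they were high, and 1 only through control. All 67 kept their direction in every setting in which they were tested, which was mostly fixed in advance. Without overlap, leaving out 1 library cannot turn the sign, and several settings leave the estimated change as it was. Single genes kept their call in 3 to 17 of up to 19 settings (median 7). The lowest count, 3, was that of a lower gene, Nyap2, and of a higher gene, Akr7a5. Rescaling to a total that leaves out ribosomal RNA-like and mitochondrial transcripts gave 75 genes, 70 lower and 5 higher.

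**Figure D1:**
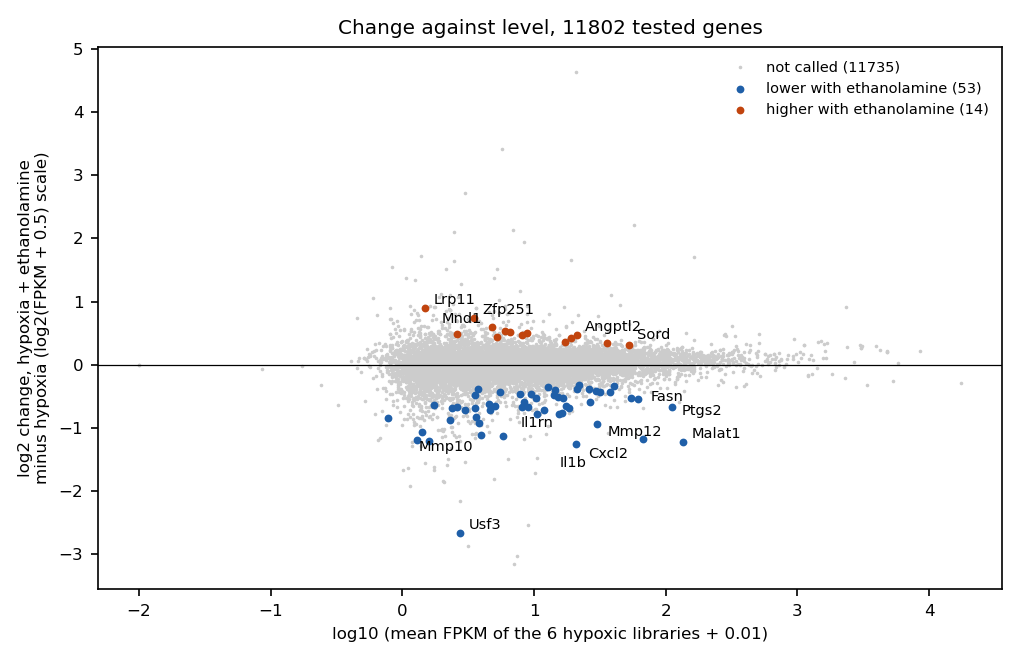
Log2 change of hypoxia with ethanolamine minus hypoxia (vertical axis, log2(FPKM + 0.5) scale) against the log10 mean FPKM of the 6 hypoxic libraries, 1 point per tested gene. The 53 lower genes that passed (blue) reach -2.67 at Usf3, the 14 higher ones (red) reach 0.90 at Lrp11, and grey points, some of them farther from 0, are genes that did not pass.

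Transcripts of the interleukin-1 family fell on the agonist and on the antagonist side. Il1b, which encodes the secreted cytokine interleukin-1 beta, fell with ethanolamine, and so did Il1rn, which encodes the receptor antagonist that blocks it. Il1b stood at 11.6, 12.1 and 12.5 FPKM in the supplemented libraries, against 35.5, 23.7 and 30.00 FPKM in hypoxia alone and 2.31, 2.103 and 2.04 in control (log2 change -1.25, SE 0.13, limma adjusted p = 0.0153). The supplemented libraries lay close together, below every hypoxia library and above every control library. Il1rn stood at 13.6, 12.8 and 14.3 FPKM with ethanolamine, against 23.02, 20.4 and 21.4 in hypoxia alone and 6.05, 5.24 and 4.92 in control (log2 change -0.65, SE 0.09, limma adjusted p = 0.0219). All 3 supplemented libraries again lay between hypoxia and control. Il1a, the other agonist, read 4.65, 4.93 and 4.003 FPKM with ethanolamine and 9.87, 7.14 and 9.06 in hypoxia alone, and its change of -0.86 missed the threshold (limma adjusted p = 0.0573). Il1f9, an interleukin-36 cytokine gene, had a change of -0.53 (limma adjusted p = 0.0895). Of the 9 tested members of the interleukin-1 and inflammasome list, out of 17 listed, 2 passed, both lower, and the median change was -0.23. Without overlap 5 were lower (55.6%, against 11.2% of all tested genes). The sensor gene Nlrp3 (-0.17, limma adjusted p = 0.442) and the protease gene Casp1 (0.14, limma adjusted p = 0.685), which acts on the cytokine precursor, did not pass. In bulk RNA, fewer cells making a transcript and less of it per cell cannot be told apart.

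Among other secreted cytokines 1 gene passed, and it was lower. Osm, which encodes oncostatin M of the interleukin-6 family, fell to 11.4, 10.7 and 11.1 FPKM with ethanolamine, against 14.98, 13.7 and 14.1 in hypoxia alone and 8.97, 8.57 and 8.597 in control (log2 change -0.35, SE 0.06, limma adjusted p = 0.0436). It was the only one of 8 tested members, out of 16 listed, that passed. Without overlap 3 were lower (37.5%), Osm, Il6 and Tnf, and 1 higher (12.5%). Among all tested genes these shares were 11.2% and 10.5%. Il6 read 2.16, 2.81 and 1.92 FPKM with ethanolamine and 3.64, 4.96 and 3.78 in hypoxia alone, without overlap (log2 change -0.73, 95% interval -1.19 to -0.27, limma adjusted p = 0.154). Tnf read 78.8, 75.6 and 71.05 FPKM with ethanolamine and 82.99, 83.5 and 97.7 in hypoxia alone (log2 change -0.22, 95% interval -0.42 to -0.03, limma adjusted p = 0.27). Il15, a lymphocyte growth factor gene, was the one member higher without overlap, at 0.48 (limma adjusted p = 0.334).

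**Figure D2:**
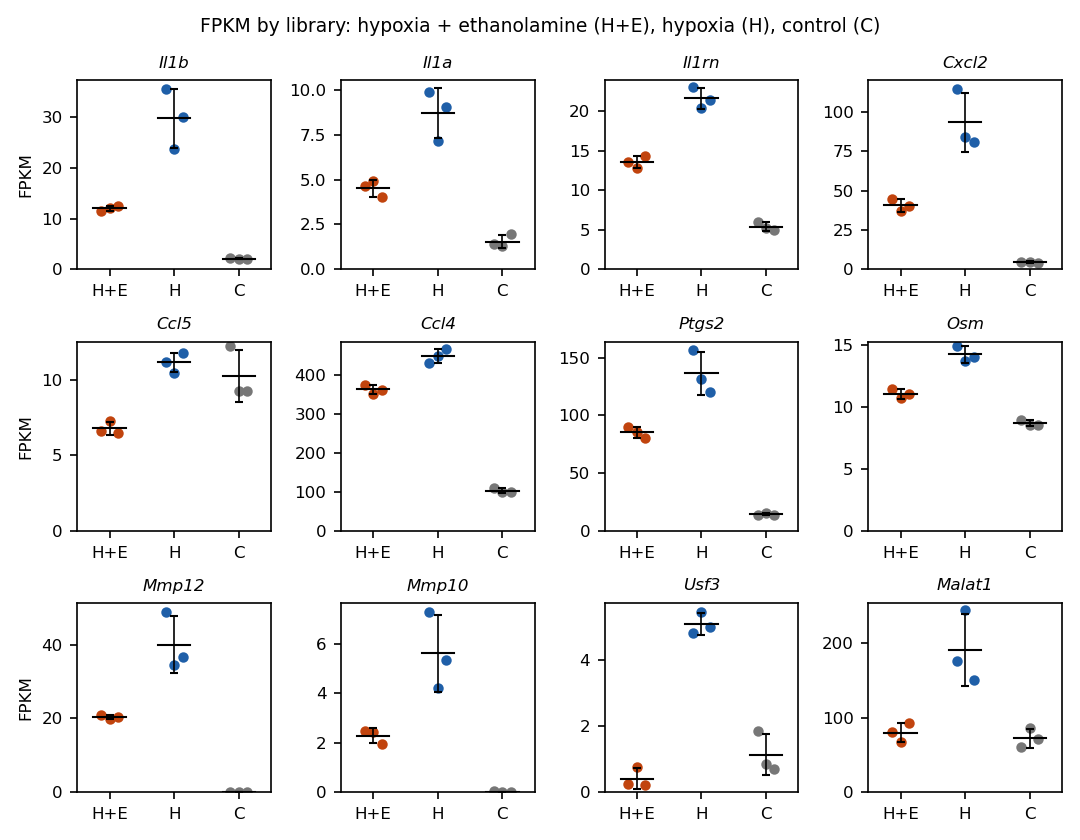
FPKM (vertical axes, linear, from 0) of 12 genes in the 3 libraries each of hypoxia with ethanolamine (H+E), hypoxia (H) and control (C), with bars for the mean and SD. In each panel the 3 supplemented libraries lie below the 3 hypoxia libraries; Mmp12 and Mmp10 are near 0 in control, Ccl5 and Malat1 are not.

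Chemokine transcripts, which recruit leukocytes, were lower across the CC family. All 9 tested CC chemokine genes, out of 15 listed, were lower in all 3 supplemented libraries than in any hypoxia library, as were 11.2% of all tested genes. Their changes ran from -0.79 to -0.25 with a median of -0.35, and 1 of them passed. That was Ccl5, an attractant of lymphocytes and monocytes, at 6.61, 7.26 and 6.47 FPKM with ethanolamine, against 11.2, 10.5 and 11.8 in hypoxia alone and 12.2, 9.24 and 9.26 in control (log2 change -0.68, SE 0.11, limma adjusted p = 0.0399). Its control level was near that of hypoxia, and the supplemented libraries lay below both groups. The abundant Ccl4, a monocyte attractant, read 374, 353 and 363 FPKM with ethanolamine and 432, 449 and 468 in hypoxia alone, and its change of -0.31 did not pass (limma adjusted p = 0.0795). Ccl6 (-0.36, limma adjusted p = 0.128), Ccl12 (-0.79, limma adjusted p = 0.142) and Ccl9 (-0.25, limma adjusted p = 0.199) did not pass either. Ccr1, a receptor for several of these ligands, fell to 22.5, 22.4 and 23.5 FPKM with ethanolamine, against 30.4, 28.5 and 30.6 in hypoxia alone (log2 change -0.38, SE 0.06, limma adjusted p = 0.0379); it belongs to no list and was chosen after its value was seen.

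Of 3 tested CXC and other chemokines, out of 13 listed, 2 passed. Cxcl2, a neutrophil attractant, stood at 44.9, 36.8 and 40.2 FPKM with ethanolamine, against 115, 84.1 and 81.1 in hypoxia alone and 4.93, 4.88 and 3.99 in control (log2 change -1.17, SE 0.14, limma adjusted p = 0.019). Every supplemented library lay below every hypoxia library and far above control. Cxcl10, an interferon-induced attractant, was low in both hypoxic groups, at 0.366, 0.431 and 0.412 FPKM with ethanolamine and 0.905, 1.34 and 1.13 in hypoxia alone, and it reached the level for testing through control, at 10.4, 11.2 and 11.97 (log2 change -0.84, SE 0.12, limma adjusted p = 0.0271). Pf4, the platelet factor 4 gene, overlapped between the groups (-0.12, limma adjusted p = 0.529).

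Ptgs2, the inducible cyclooxygenase that starts prostaglandin synthesis, fell to 89.8, 85.9 and 80.6 FPKM with ethanolamine, against 157, 131 and 120.5 in hypoxia alone and 14.1, 15.2 and 13.8 in control (log2 change -0.66, SE 0.10, limma adjusted p = 0.0329). The other 10 tested genes of prostaglandin and leukotriene synthesis did not pass, with 3 members lower and 3 higher without overlap, Ptgs2 included. Each count was 27.3% of the list, against 11.2% lower and 10.5% higher of all tested genes. Nos2, the inducible nitric oxide synthase, read 322, 289 and 293 FPKM with ethanolamine and 401, 376 and 376 in hypoxia alone, without overlap, and 24.4, 21.7 and 22.4 in control. Its change of -0.35 (95% interval -0.50 to -0.20) missed the threshold at a limma adjusted p of 0.0705.

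In the lists of sensors, regulators and feedback genes, and of interferon-stimulated and antigen presentation genes, no transcript passed. Of 19 NF-kappaB subunits and feedback inhibitors none passed, 8 were lower (42.1%) and 0 higher without overlap, and the median was -0.15. Among all tested genes 11.2% were lower and 10.5% higher without overlap. The smallest p-values were those of the early response gene Ier3 (-0.33, limma adjusted p = 0.134), the nuclear inhibitor gene Nfkbiz (-0.36, limma adjusted p = 0.151), Nfkb1 (-0.26, limma adjusted p = 0.158) and the ribonuclease gene Zc3h12a (-0.20, limma adjusted p = 0.188). Among 19 Toll-like receptors and adaptors (none passed, 6 lower and 1 higher without overlap, median -0.09), the co-receptor Cd14 read 75.4, 81.02 and 78.9 FPKM with ethanolamine and 115, 91.3 and 98.7 in hypoxia alone (-0.36, limma adjusted p = 0.103). Tlr7, a sensor of single-stranded RNA, was at -0.65 (limma adjusted p = 0.12). None of 32 immediate early and feedback genes passed, with 16 lower and 3 higher without overlap and a median of -0.17; Myc was at -0.54 (limma adjusted p = 0.128) and Klf10, a TGF-beta-induced repressor gene, at 0.30 (limma adjusted p = 0.125). None of 33 tested interferon-stimulated genes, out of 58 listed, passed either, with 9 lower and 1 higher without overlap and a median of -0.16, and the antiviral gene Rsad2 was at -0.55 (limma adjusted p = 0.156). The interferon-induced Cxcl10, which passed, is counted with the chemokines. For 16 antigen presentation genes the median was 0.03, 0 were lower and 1 higher without overlap, and the lowest adjusted p was that of Nlrc5 (-0.29, limma adjusted p = 0.251).

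The promoters of 3 secreted-factor genes that fell are printed because they hold the NF-kappaB consensus. Across all groups they did not share 1 pattern, since Cxcl10 was highest in control and Cxcl2 and Mmp12 in hypoxia alone. The consensus of the NF-kappaB dimers was searched on both strands of the 250 bases before the transcription start in RefSeq (GRCm38.p6), and its choice followed the results above. It was found in 7.25% of 32851 windows and in 10.4% of the 7960 tested genes with a window. Among lower genes it was found in 7 of 33 with a window, which were Cxcl2, Cxcl10, Ccr1, Mmp12, Rnf145, Fam102b and Pde1b, and among higher genes in 2 of 9. It was also found in 19 of 47 genes (40.4%) of the cytokine, chemokine, NF-kappaB and prostaglandin lists, most of which did not pass the test. In other lists it was found in 5 of 21 cholesterol genes (23.8%), 1 of 16 fatty acid genes (6.25%) and 3 of 43 mitosis genes (6.98%). Windows are given 5′ to 3′ on the strand of the gene and capitals mark the matches. Cxcl2 (chr5:90903649-90903898, plus strand) holds 2 overlapping matches on opposite strands, Cxcl10 (chr5:92348890-92349139, minus strand) 4 matches in 2 stretches, and Mmp12 (chr9:7344147-7344396, plus strand, 1 of its 2 windows) 1 match on the minus strand; Mmp12 is the macrophage elastase described next. A match is a description of the letters only.
Cxcl2: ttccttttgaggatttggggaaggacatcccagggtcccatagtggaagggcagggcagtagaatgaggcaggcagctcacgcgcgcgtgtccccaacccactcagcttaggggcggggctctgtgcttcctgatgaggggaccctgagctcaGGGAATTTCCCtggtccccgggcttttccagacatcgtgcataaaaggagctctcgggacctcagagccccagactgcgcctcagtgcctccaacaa
Cxcl10: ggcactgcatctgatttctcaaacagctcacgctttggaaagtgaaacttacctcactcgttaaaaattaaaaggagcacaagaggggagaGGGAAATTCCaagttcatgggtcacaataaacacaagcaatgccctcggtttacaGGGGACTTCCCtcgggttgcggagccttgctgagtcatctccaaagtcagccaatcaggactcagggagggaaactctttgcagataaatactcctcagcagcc
Mmp12: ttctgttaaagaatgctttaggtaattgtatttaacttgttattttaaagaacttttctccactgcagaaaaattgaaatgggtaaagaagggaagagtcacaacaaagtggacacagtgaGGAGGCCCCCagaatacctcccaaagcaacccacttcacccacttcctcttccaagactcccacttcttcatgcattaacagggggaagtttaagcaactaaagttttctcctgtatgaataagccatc

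Secreted proteases that cut extracellular matrix fell, within a list that held no other call. Mmp12, which digests elastin, stood at 21.1, 19.8 and 20.4 FPKM with ethanolamine, against 48.8, 34.5 and 36.7 in hypoxia alone and 0.121, 0.0561 and 0.1398 in control (log2 change -0.94, SE 0.12, limma adjusted p = 0.0219). Mmp10, stromelysin-2, stood at 2.46, 2.45 and 1.95 FPKM with ethanolamine, against 7.28, 4.22 and 5.36 in hypoxia alone (log2 change -1.11, SE 0.18, limma adjusted p = 0.0397). Both were near 0 in control, and in both hypoxia library 1 was the highest of all libraries. Adamts1, a proteoglycan-cleaving protease with an anti-angiogenic role, fell to 13.6, 12.98 and 14.02 FPKM with ethanolamine, against 20.4, 20.2 and 18.8 in hypoxia alone and 15.8, 15.1 and 14.9 in control (log2 change -0.53, SE 0.06, limma adjusted p = 0.0153). These 3 were the members past the threshold among 11 tested metalloproteinases and inhibitors, out of 21 listed, whose median was -0.02. Outside the list, the serine protease gene Prss46 fell to 7.52, 7.72 and 7.32 FPKM with ethanolamine, against 13.1, 13.3 and 13.6 in hypoxia alone and 0.885, 1.08 and 0.696 in control (log2 change -0.79, SE 0.10, limma adjusted p = 0.019). Spink5, which encodes a serine protease inhibitor, was lower as well (log2 change -0.72, SE 0.10, limma adjusted p = 0.0332).

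Of 17 tested angiogenic and growth factors, out of 27 listed, 1 passed, and it was higher. Angptl2, a secreted angiopoietin-like protein, rose to 25.3, 22.3 and 26.4 FPKM with ethanolamine, against 18.9, 16.8 and 17.5 in hypoxia alone and 38.5, 36.1 and 37.3 in control (log2 change 0.47, SE 0.08, limma adjusted p = 0.0402). It overlaps the tested gene Ralgps1 on the other strand, and whether the counting used strand is not given in the sources used here. The call of Angptl2 was kept in 4 of 19 settings, and was lost in both other scalings and with any 1 library left out. The remaining 16 members lay below 0, 10 of them without overlap (58.8% of the list, against 11.2% of all tested genes), and the list median was -0.24. Csf3, the granulocyte colony-stimulating factor, read 13.6, 12.7 and 14.7 FPKM with ethanolamine and 24.9, 22.8 and 22.7 in hypoxia alone (-0.76, limma adjusted p = 0.0762). The placental growth factor gene Pgf was at -0.56 (limma adjusted p = 0.102) and the endothelin gene Edn1 at -0.86 (limma adjusted p = 0.121). Vegfa, the principal hypoxia-induced angiogenic factor, read 30.6, 32.9 and 28.7 FPKM with ethanolamine and 37.1, 33.6 and 34.2 in hypoxia alone (log2 change -0.18, 95% interval -0.33 to -0.03, limma adjusted p = 0.254). Vwf, which encodes von Willebrand factor and is one of the endothelial markers, fell to 1.97, 1.83 and 1.86 FPKM with ethanolamine, against 3.05, 3.46 and 3.38 in hypoxia alone (log2 change -0.67, SE 0.09, limma adjusted p = 0.0219). The summed endothelial list was 38.4 to 43.7 FPKM with ethanolamine, 47.6 to 49.8 in hypoxia alone and 27.6 to 28.3 in control, mostly from Flt1, and its part in these results was not tested.

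The core transcripts of the hypoxic response showed no change past the threshold. Of 47 targets of the hypoxia-inducible factors outside glycolysis none passed, and 7 were lower (14.9%) and 4 higher (8.51%) without overlap. Those shares were near the 11.2% and 10.5% of all tested genes. The list median was -0.04, a sign that turned in some settings. Bnip3, a mitophagy receptor gene, read 271, 317 and 322 FPKM with ethanolamine, 301, 302 and 289 in hypoxia alone and 6.68, 7.52 and 8.42 in control (log2 change 0.02, 95% interval -0.19 to 0.23, limma adjusted p = 0.933). Hif1a (log2 change -0.06, 95% interval -0.21 to 0.10, limma adjusted p = 0.756) and the glucose transporter gene Slc2a1 (-0.04, 95% interval -0.25 to 0.17, limma adjusted p = 0.872) overlapped as well. Slc2a3, a second glucose transporter gene, read 5.63, 5.201 and 4.802 FPKM with ethanolamine and 3.84, 3.45 and 3.35 in hypoxia alone, without overlap (0.50, limma adjusted p = 0.0795). Of 21 glycolysis genes none passed (median 0.05), with changes of -0.22 to 0.21; Hk3, a hexokinase gene, was at -0.20 (limma adjusted p = 0.202) and the enolase gene Eno1 at 0.18 (limma adjusted p = 0.311). None of 39 mitophagy and autophagy genes passed, with a median of 0.01. Without overlap 4 were lower (10.3%) and 3 higher (7.69%), near the shares of all tested genes. Pink1, the kinase that marks damaged mitochondria, read 7.803, 8.36 and 8.87 FPKM with ethanolamine and 8.41, 6.97 and 8.18 in hypoxia alone (log2 change 0.08, 95% interval -0.15 to 0.32, limma adjusted p = 0.754). The prohibitin gene Phb2 had the smallest p of the list (0.23, limma adjusted p = 0.133).

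Genes that carry ethanolamine into phosphatidylethanolamine did not pass the test either, and the first enzymes of the pathway were lower in every supplemented library. Of 28 listed genes 27 were in the table and 23 were tested, none passed, and the median was 0.01. Without overlap 5 were lower (21.7%) and 2 higher (8.70%), against 11.2% and 10.5% of all tested genes. Etnk1, the ethanolamine kinase, read 8.43, 7.83 and 7.895 FPKM with ethanolamine and 9.196, 10.9 and 9.36 in hypoxia alone (log2 change -0.27, 95% interval -0.49 to -0.05, limma adjusted p = 0.25). Pcyt2, the enzyme of the next step, which makes CDP-ethanolamine, read 12.4, 11.5 and 11.6 FPKM with ethanolamine, 15.6, 14.04 and 15.05 in hypoxia alone and 17.7, 12.8 and 15.4 in control (log2 change -0.32, 95% interval -0.56 to -0.08, limma adjusted p = 0.218). Both intervals exclude 0 before adjustment, and 1730 of 11802 tested genes (14.7%) had an unadjusted limma p under 0.05. For the last step, Selenoi had a change of 0.02 (95% interval -0.27 to 0.32, limma adjusted p = 0.956) and Cept1 of 0.18 (95% interval -0.07 to 0.43, limma adjusted p = 0.486). In the mitochondrial route Pisd, the phosphatidylserine decarboxylase, read 9.797, 8.99 and 9.902 FPKM with ethanolamine and 9.75, 9.42 and 9.26 in hypoxia alone (log2 change 0.01, 95% interval -0.34 to 0.36, limma adjusted p = 0.979). Phospho1, a phosphatase of phosphoethanolamine and phosphocholine, was at -0.69 (limma adjusted p = 0.183) and the lipin gene Lpin2, which supplies diacylglycerol, at -0.29 (limma adjusted p = 0.179). Slc44a2, a plasma membrane carrier of choline and ethanolamine, read 5.89, 5.35 and 5.65 FPKM with ethanolamine and 3.09, 3.96 and 3.94 in hypoxia alone, without overlap (log2 change 0.56, SE 0.11, limma adjusted p = 0.0745). Etnk2, the second kinase gene, was listed at 0 in all 9 libraries, and Etnppl, the phosphoethanolamine lyase gene, was at or near 0 in all 9.

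On the choline side none of 14 tested genes, out of 21 listed, passed, with a median of -0.07. Without overlap 4 were lower (28.6%) and 1 higher (7.14%), against 11.2% and 10.5% of all tested genes. The choline kinase gene Chka read 1.83, 1.77 and 1.88 FPKM with ethanolamine and 3.400, 3.16 and 2.57 in hypoxia alone (log2 change -0.60, SE 0.13, limma adjusted p = 0.0976). Lpcat1, an acyltransferase that remodels phosphatidylcholine, was at -0.37 (limma adjusted p = 0.0595), the phospholipase gene Pnpla6 at -0.42 (limma adjusted p = 0.0687) and the phospholipase D gene Pld2 at -0.24 (limma adjusted p = 0.176).

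**Figure D3:**
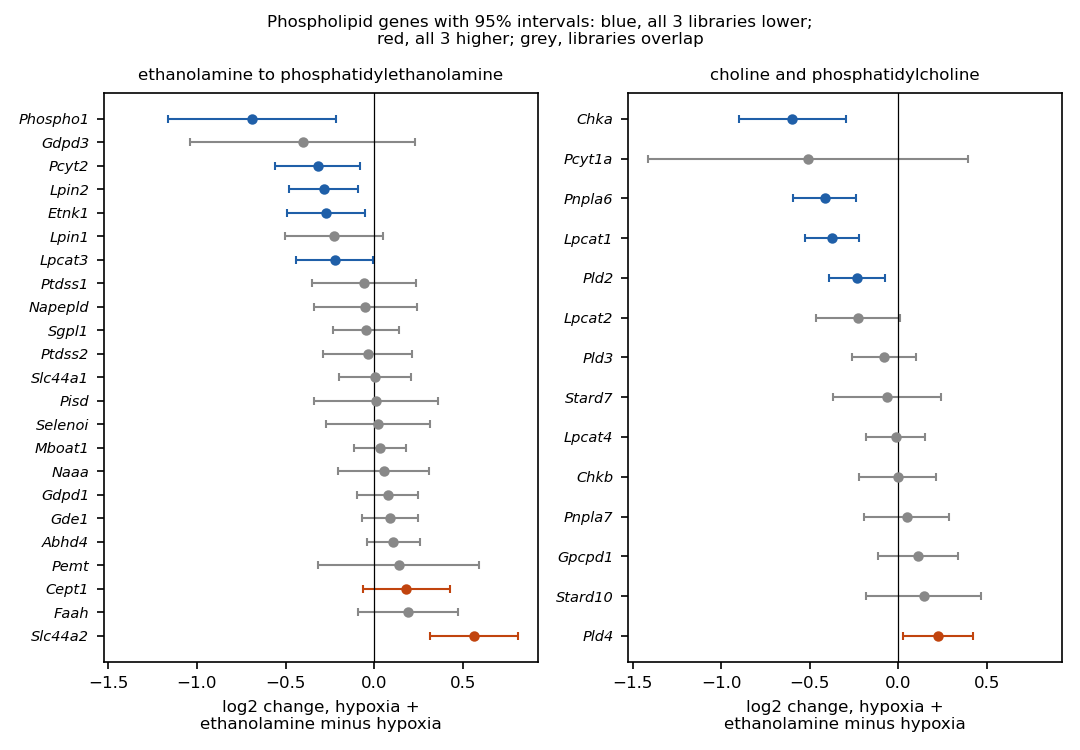
Log2 change of hypoxia with ethanolamine minus hypoxia (horizontal axis) with 95% intervals for the 23 tested genes from ethanolamine to phosphatidylethanolamine and the 14 tested choline genes. Blue marks genes lower in all 3 supplemented libraries (5 and 4 genes), red those higher in all 3 (2 and 1), and grey those whose libraries overlap; no gene passed the adjusted threshold.

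In the cholesterol and fatty acid lists 3 genes passed, all lower with ethanolamine. Of 28 tested genes of cholesterol synthesis and uptake, out of 32 listed, 24 lay below 0, against 46.7% of all tested genes. Without overlap 16 were lower (57.1%, against 11.2% of all tested genes) and 0 higher. The median was -0.25 and 2 passed, among them Idi1. Idi1, the isopentenyl diphosphate isomerase, stood at 44.9, 47.6 and 41.4 FPKM with ethanolamine, against 72.1, 62.3 and 59.7 in hypoxia alone and 48.6, 55.8 and 53.7 in control (log2 change -0.53, SE 0.09, limma adjusted p = 0.0436). Lss, the lanosterol synthase, read 12.8, 12.2 and 11.8 FPKM with ethanolamine and 16.3, 15.1 and 15.5 in hypoxia alone (-0.34, limma adjusted p = 0.0595). Insig1, an endoplasmic reticulum retention factor for sterol regulators, was at -0.32 (limma adjusted p = 0.0795), Msmo1, the sterol methyl oxidase, at -0.67 (limma adjusted p = 0.182), and Mylip, a ubiquitin ligase against lipoprotein receptors, gave the highest value of the list at 0.35 (limma adjusted p = 0.311). Hmgcs1, which makes the first committed precursor, read 29.4, 31.1 and 30.01 FPKM with ethanolamine and 39.3, 35.8 and 33.5 in hypoxia alone (-0.26, limma adjusted p = 0.194). Srebf2, the transcription factor of the pathway, overlapped between the groups, at 31.7, 30.8 and 26.3 FPKM with ethanolamine and 27.8, 33.3 and 33.5 in hypoxia alone (-0.09, 95% interval -0.38 to 0.20, limma adjusted p = 0.791).

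Fasn, the fatty acid synthase, fell to 55.5, 46.9 and 46.8 FPKM with ethanolamine, against 70.7, 78.1 and 69.5 in hypoxia alone and 83.97, 71.7 and 71.9 in control (log2 change -0.55, SE 0.09, limma adjusted p = 0.0436). It was the only one of 20 tested fatty acid genes, out of 28 listed, that passed, and the list median was -0.13. Without overlap 8 were lower (40%) and 2 higher (10%), against 11.2% and 10.5% of all tested genes. Acly, which supplies cytosolic acetyl-CoA, was at -0.27 (limma adjusted p = 0.111), the desaturase gene Fads1 at -0.26 (limma adjusted p = 0.0921) and the elongase gene Elovl5 at 0.22 (limma adjusted p = 0.12). A further lipid step changed outside the lists, in genes chosen after their values were seen. Ugcg, the glucosylceramide synthase, fell to 7.796, 8.12 and 7.87 FPKM with ethanolamine, against 11.2, 12.1 and 10.2 in hypoxia alone (log2 change -0.47, SE 0.07, limma adjusted p = 0.0381). B4galt5, which adds galactose to the product of Ugcg, fell to 26.3, 24.5 and 25.2 FPKM with ethanolamine, against 31.96, 34.3 and 35.3 in hypoxia alone (log2 change -0.41, SE 0.06, limma adjusted p = 0.0282). Rnf145, an endoplasmic reticulum ubiquitin ligase tied to sterol sensing, was lower as well, at -0.68 (SE 0.07, limma adjusted p = 0.0153).

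Promoters of 3 lipid genes are printed because 13 cholesterol genes share a CCAAT form before the start. The form CCAATNNG was found on either strand in 13 of 21 cholesterol genes with a window (61.9%) and in 6 of 16 fatty acid genes, against 12.7% of all windows and 20.6% of tested genes with a window. It was also found in 21 of 43 mitosis genes (48.8%), a list with 0 members lower without overlap, and in 6 of 33 lower genes. The form TCACNCCAC of the sterol response element was found on either strand in 1.05% of all windows and in 1.23% of tested genes with a window. It was found in 1 of 21 cholesterol genes, Hmgcs1, and in 1 of 16 fatty acid genes. Among lower genes it was found in 3 of 33, Malat1, Adamts1 and Zbtb43, and among higher genes in 0 of 9. In the windows shown no match of it overlaps a CCAAT match. Capitals mark CCAAT matches in Idi1 (chr13:8885356-8885605, plus strand, 1 match) and Fasn (chr11:120824548-120824797, minus strand, 2 overlapping matches), and the sterol element form in Hmgcs1 (chr13:119690101-119690350, plus strand).
Idi1: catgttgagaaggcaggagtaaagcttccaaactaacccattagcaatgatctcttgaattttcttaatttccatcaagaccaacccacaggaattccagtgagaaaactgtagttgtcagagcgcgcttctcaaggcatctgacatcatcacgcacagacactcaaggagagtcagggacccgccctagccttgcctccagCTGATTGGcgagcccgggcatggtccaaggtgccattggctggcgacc
Fasn: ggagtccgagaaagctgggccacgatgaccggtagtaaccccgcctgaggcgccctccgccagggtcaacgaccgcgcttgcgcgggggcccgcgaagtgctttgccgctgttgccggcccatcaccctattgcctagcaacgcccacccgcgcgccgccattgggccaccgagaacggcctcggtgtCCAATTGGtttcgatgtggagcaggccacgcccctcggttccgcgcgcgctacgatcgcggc
Hmgcs1: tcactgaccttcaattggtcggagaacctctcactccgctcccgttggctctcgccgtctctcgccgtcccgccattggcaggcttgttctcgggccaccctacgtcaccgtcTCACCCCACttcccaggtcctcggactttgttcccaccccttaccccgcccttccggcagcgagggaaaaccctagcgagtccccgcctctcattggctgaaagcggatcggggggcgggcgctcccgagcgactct

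The 14 genes that rose came from several pathways, several of them enzymes. Sord, the sorbitol dehydrogenase of the polyol pathway that turns glucose into fructose, rose to 56.3, 60.4 and 58.6 FPKM with ethanolamine, against 45.6, 46.97 and 48.6 in hypoxia alone and 87.8, 83.95 and 87.3 in control (log2 change 0.31, SE 0.05, limma adjusted p = 0.0436). Acat1, the mitochondrial thiolase of ketone and isoleucine breakdown, rose to 21.2, 22.9 and 21.9 FPKM with ethanolamine, against 15.2, 16.02 and 17.6 in hypoxia alone and 17.01, 16.9 and 16.3 in control (log2 change 0.42, SE 0.07, limma adjusted p = 0.0385). Slc48a1, a haem carrier of the endolysosome, rose to 40.00, 39.8 and 40.9 FPKM with ethanolamine, against 30.3, 31.6 and 32.8 in hypoxia alone (log2 change 0.35, SE 0.06, limma adjusted p = 0.0436); it overlaps Hdac7 on the other strand. Akr7a5, an aldehyde reductase, stood at 9.53, 10.3 and 11.3 FPKM with ethanolamine, against 7.34, 7.44 and 6.81 in hypoxia alone (log2 change 0.49, SE 0.08, limma adjusted p = 0.0471). It was the one of 34 NRF2 targets and redox genes that passed, in a call kept in 3 of 19 settings. Of the 34, 8 were higher (23.5%, against 10.5% of all tested genes) and 3 lower (8.82%, against 11.2%) without overlap. The metallothionein gene Mt2 was at 0.32 (limma adjusted p = 0.0795) and the mitochondrial peroxiredoxin gene Prdx3 at 0.32 (limma adjusted p = 0.0823).

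Lrp11, a receptor-related membrane protein gene below 2 FPKM on average, had the highest change that passed. It read 1.95, 1.96 and 2.34 FPKM with ethanolamine and 0.912, 0.869 and 0.856 in hypoxia alone (log2 change 0.90, SE 0.11, limma adjusted p = 0.0182) and was chosen after its value was seen. The zinc finger gene Zfp251 rose by 0.73, Lage3, a subunit of the KEOPS complex that modifies transfer RNA, by 0.53, and Ehd2, a membrane-shaping ATPase of caveolae, by 0.49 on the log2 scale. Wdr34, a dynein subunit of cilia, rose by 0.48, Tbc1d5, a retromer-bound Rab7 regulator, by 0.43 and the processed pseudogene AC153546.1, whose reads may be shared with a parent gene, by 0.37. Their limma adjusted p-values were 0.0342 for Zfp251, 0.0342 for Lage3, 0.0436 for Ehd2, 0.0436 for Wdr34, 0.0379 for Tbc1d5 and 0.0393 for AC153546.1. Mnd1, which acts in meiotic recombination, rose to 5.42, 6.65 and 5.42 FPKM with ethanolamine, against 3.25, 4.08 and 3.71 in hypoxia alone and 17.3, 18.5 and 17.4 in control (log2 change 0.60, SE 0.10, limma adjusted p = 0.0436), as the one of 33 recombination and Fanconi genes that passed (median 0.04).

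Most proliferation genes lay slightly above 0, with none past the threshold. Of 57 replication and S-phase genes 52 lay above 0, 21 were higher (36.8%) and 0 lower without overlap, and the median was 0.16. Among all tested genes 46.7% lay below 0, and 10.5% were higher and 11.2% lower without overlap. The chromatin assembly gene Chaf1b was at 0.39 (limma adjusted p = 0.103) and the helicase genes Mcm7 and Mcm4 at 0.23 and 0.29 (limma adjusted p = 0.108 and 0.11). Of 51 mitosis genes 46 lay above 0, 12 were higher (23.5%) and 0 lower without overlap, and the median was 0.15. Cdca8, a subunit of the chromosomal passenger complex, read 4.47, 4.74 and 4.43 FPKM with ethanolamine and 3.53, 3.56 and 3.72 in hypoxia alone (0.30, limma adjusted p = 0.0713). Replication-dependent histones had a median of -0.06 over 43 tested genes, with 3 lower (6.98%) and 1 higher (2.33%) without overlap. Hist1h2bq was at -0.46 (limma adjusted p = 0.0795), and near-identical copies make single histone values uncertain.

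Most respiratory transcripts lay above 0 as well, again without a call. All 13 mitochondrially encoded mRNAs were above 0 and 12 of them were higher without overlap (92.3%, against 10.5% of all tested genes). Their changes were 0.20 to 0.91, with a median of 0.31. The complex I gene mt-Nd2 read 1830.1, 1906 and 1883 FPKM with ethanolamine, against 1450.2, 1516 and 1439 in hypoxia alone (0.35, limma adjusted p = 0.0795). Another complex I gene, mt-Nd4, read 1707, 1686 and 1724 FPKM with ethanolamine, against 1259, 1428 and 1270.4 in hypoxia alone (0.37, limma adjusted p = 0.0894). The exception, mt-Atp6, swung between libraries within each group, at 4046, 1055 and 3901 FPKM with ethanolamine and 816, 3424 and 894 in hypoxia alone, and copies in the nuclear genome make values such as those of mt-Co2 (0.20, limma adjusted p = 0.292) uncertain. Mitochondrial transcripts other than ribosomal RNA, transfer RNAs included, held 12.5%, 11.9% and 11.8% of FPKM with ethanolamine. They held 9.78%, 10.8% and 9.77% in hypoxia alone and 11.3%, 12.2% and 12.1% in control. Ribosomal RNA-like transcripts, which enter the same total, held 5.93%, 5.92% and 10.5% with ethanolamine and 8.89%, 10.9% and 6.65% in hypoxia alone, and their part in these results was not tested. Of 76 nuclear-encoded respiratory genes 73 lay above 0, 18 were higher (23.7%) and 0 lower without overlap and the median was 0.15. The ATP synthase gene Atp5b was at 0.23 (limma adjusted p = 0.193). Of 28 tricarboxylic acid cycle and pyruvate genes (median 0.13) 11 were higher (39.3%) and 3 lower (10.7%, against 11.2% of all tested genes) without overlap. Suclg1, a succinate-CoA ligase subunit, was at 0.25 (limma adjusted p = 0.125) and the isocitrate dehydrogenase gene Idh2 at 0.28 (limma adjusted p = 0.16). Of 78 ribosomal protein genes 73 lay above 0, and the median was 0.11. Without overlap 9 were higher (11.5%) and 0 lower, against 10.5% and 11.2% of all tested genes. Rpl29 was at 0.20 (limma adjusted p = 0.159).

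**Figure D4:**
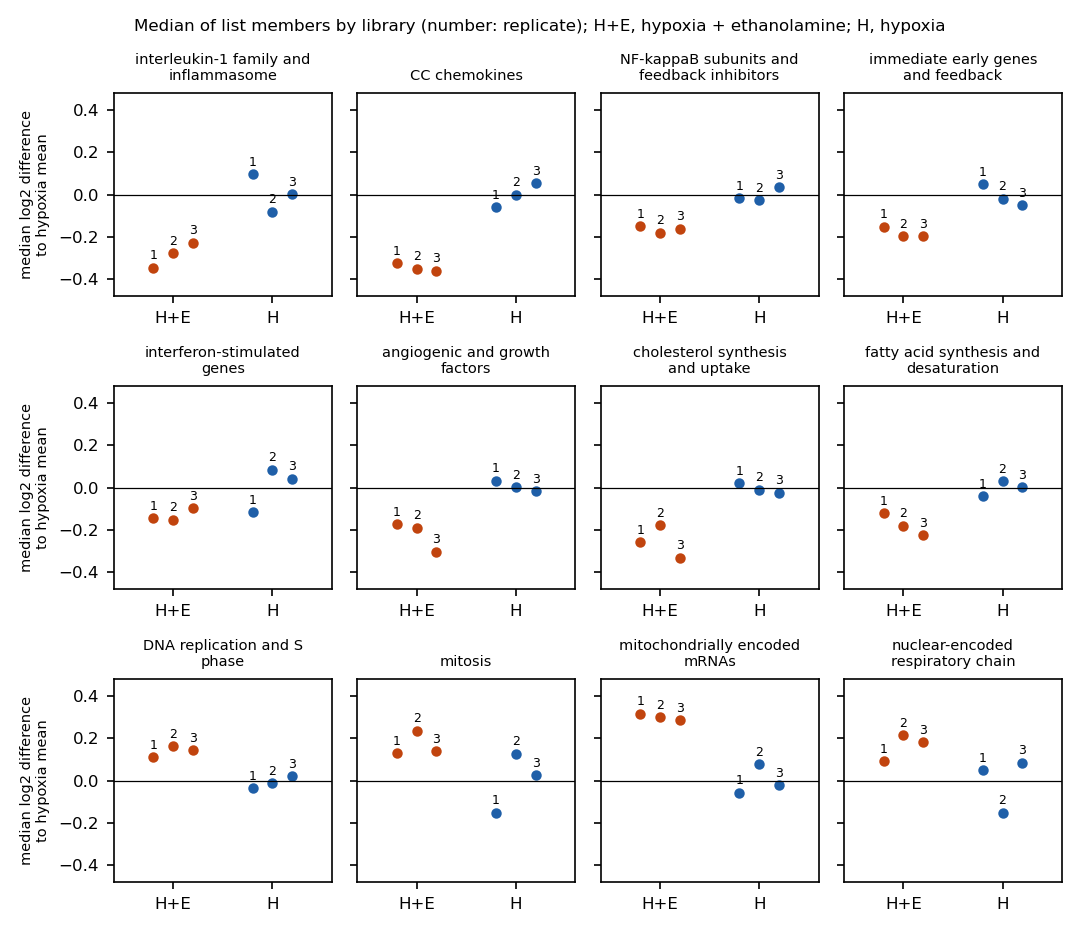
Median over the tested members of 12 gene lists of log2(FPKM + 0.5) minus the mean of the hypoxia libraries (vertical axis), for each library of hypoxia with ethanolamine (H+E) and hypoxia (H), numbered by replicate. CC chemokines lie at -0.32, -0.35 and -0.36 with ethanolamine against -0.06, 0.00 and 0.05 in hypoxia, and mitochondrial mRNAs at 0.32, 0.30 and 0.28 against -0.06, 0.08 and -0.02; for interferon-stimulated genes the groups overlap, and for mitosis and nuclear-encoded respiratory genes they nearly touch.

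The lowest change among the genes that passed was that of Usf3, a large member of the upstream stimulatory factor family. It read 0.249, 0.774 and 0.211 FPKM with ethanolamine, against 4.81, 5.45 and 5.001 in hypoxia alone and 1.84, 0.854 and 0.721 in control (log2 change -2.67, SE 0.28, limma adjusted p = 0.0153). Hypoxia libraries were the high group, and of the supplemented libraries 1 lay within and 2 below the control range. Without the hypoxia libraries its mean of 0.775 FPKM would be under the level for testing, so that a difference was built into its being tested. Malat1, an abundant nuclear non-coding RNA, fell to 80.5, 67.7 and 92.7 FPKM with ethanolamine, against 176, 245 and 151 in hypoxia alone and 60.2, 85.96 and 72.1 in control (log2 change -1.23, SE 0.20, limma adjusted p = 0.0393). The call of Malat1 was kept in 6 of 19 settings and was lost with any 1 library left out. Its paraspeckle neighbour Neat1 read 5.24, 4.28 and 5.23 FPKM with ethanolamine, 10.5, 14.7 and 10.3 in hypoxia alone and 5.79, 11.7 and 10.4 in control (-1.18, limma adjusted p = 0.0795). For both, hypoxia library 2 was the highest, and that library also held the highest share of ribosomal RNA-like transcripts, a part that was not tested. Of 13 tested nuclear non-coding RNAs, out of 21 listed, Malat1 alone passed and the median was -0.19. Without overlap 5 were lower (38.5%, against 11.2% of all tested genes). Tspoap1, which encodes a partner of the mitochondrial translocator protein TSPO, fell to 2.82, 2.07 and 2.600 FPKM with ethanolamine, against 5.18, 5.43 and 4.91 in hypoxia alone (log2 change -0.93, SE 0.12, limma adjusted p = 0.0212). Fam198b, a Golgi protein gene, fell by 0.83 (SE 0.09, limma adjusted p = 0.0153) and Nyap2, a phosphoinositide 3-kinase adaptor gene of neurons, by 0.69 (SE 0.12, limma adjusted p = 0.0451); like Usf3, Nyap2 reached the level for testing only through hypoxia. Mir5125 (-1.13, limma adjusted p = 0.0342) is transcribed from within Srrm2 in the same direction, and reads of the pair cannot be told apart.

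Other genes that fell, chosen after their values were seen, included surface receptors and carriers. Gipr, the receptor of the gut hormone GIP, fell to 7.05, 5.56 and 5.85 FPKM with ethanolamine, against 9.88, 10.8 and 9.603 in hypoxia alone and 0.2202, 0.124 and 0.1996 in control (log2 change -0.68, SE 0.11, limma adjusted p = 0.0393). Slc11a2, the divalent metal carrier that imports iron, fell to 19.6, 20.1 and 18.7 FPKM with ethanolamine, against 24.3, 24.2 and 24.8 in hypoxia alone (log2 change -0.32, SE 0.05, limma adjusted p = 0.0393). Alcam, an adhesion molecule gene, was at -0.51 (limma adjusted p = 0.019), the drug efflux pump gene Abcb1b at -0.43 (limma adjusted p = 0.0271) and Upp1, a uridine phosphorylase gene, at -0.43 (limma adjusted p = 0.0342). Of the 67 genes, 8 overlap another tested gene, so that their values are uncertain.

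In lists of stress and identity genes no member passed. Counts without overlap stand beside 11.2% lower and 10.5% higher of all tested genes. The unfolded protein response had a median of -0.07 over 29 genes, with 8 lower and 1 higher without overlap, and the folding factor gene Sdf2l1 was at -0.23 (limma adjusted p = 0.142). For 40 ATF4 and amino acid genes the median was 0.01, and 6 were lower and 6 higher without overlap; the glycine carrier gene Slc6a9 was at -0.37 (limma adjusted p = 0.0713) and the transporter gene Slc7a5 at 0.30 (limma adjusted p = 0.127). Heat shock chaperones (22 genes, median 0.11, 9 higher and 1 lower without overlap), lysosome genes (43 genes, median 0.01, 4 higher and 5 lower) and proteasome genes (31 genes, median 0.09, 4 higher and 1 lower) held no call; Hspa4l was at -0.31 (limma adjusted p = 0.0991). SOCS and JAK-STAT genes had a median of 0.00 over 26 members, with Socs5 at -0.32 and Socs3 at -0.31 (limma adjusted p = 0.0809 and 0.111). Among 28 BCL2 family and p53 target genes the median was -0.06, and Plk2, a stress-induced kinase gene, was at -0.22 (limma adjusted p = 0.121). Of 21 homeostatic and disease-associated microglial genes 6 were lower and 0 higher without overlap (median -0.04); the phagocytic receptor gene Mertk was at -0.35 (limma adjusted p = 0.201) and Cx3cr1, the fractalkine receptor, at 0.12 (limma adjusted p = 0.643). SR splicing factors and CLK kinases had a median of -0.06 over 33 genes, 5 lower and 4 higher without overlap, and the kinase gene Clk4 was at -0.30 (limma adjusted p = 0.12).

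**Figure D5:**
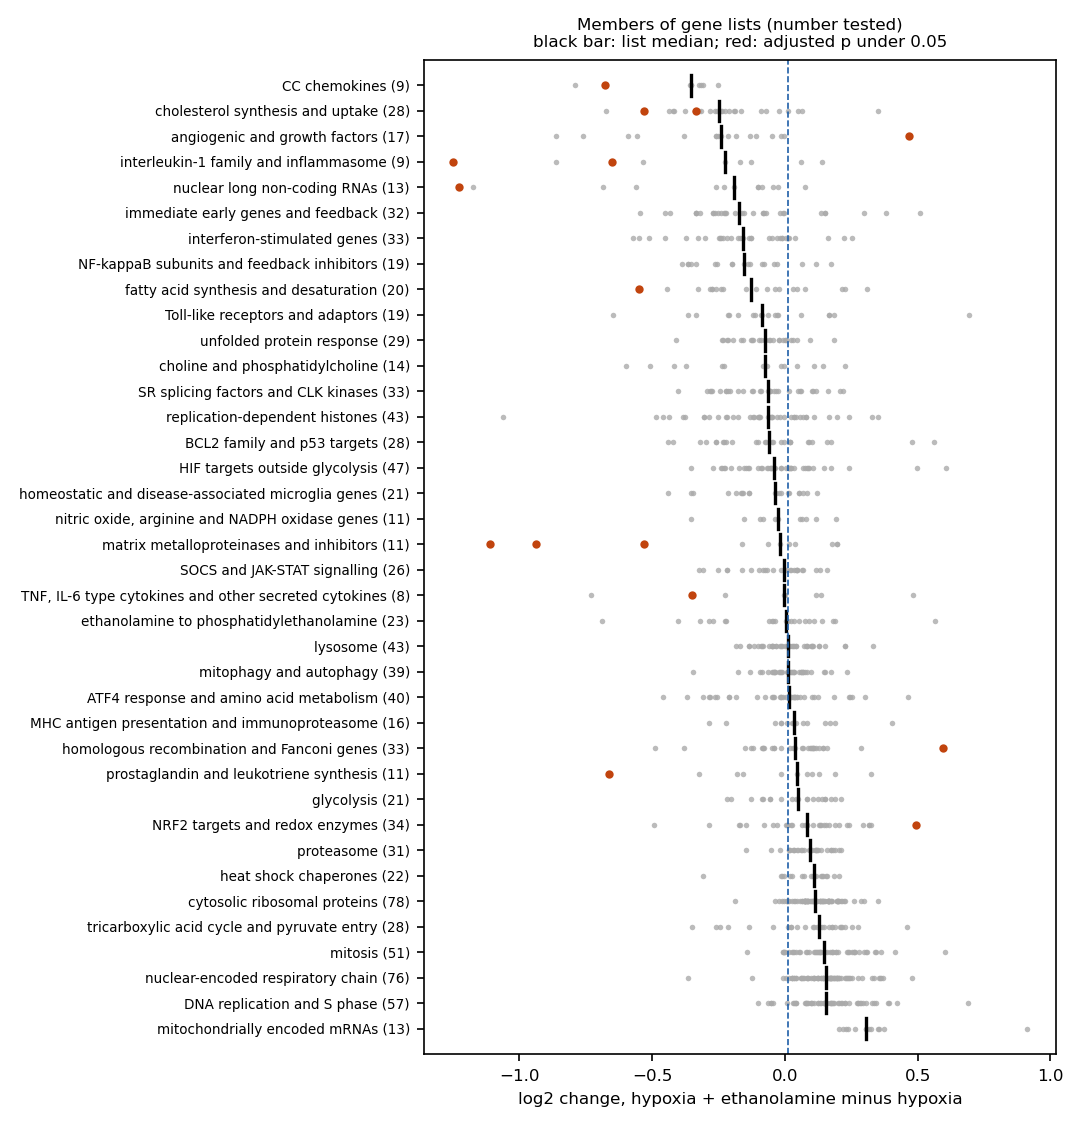
Log2 change of hypoxia with ethanolamine minus hypoxia (horizontal axis) for each tested member (points) of the gene lists with at least 5 tested members, ordered by their median (black bar); red points passed the adjusted threshold and the dashed line is the median of all tested genes, 0.01. Medians run from -0.35 for CC chemokines to 0.31 for mitochondrially encoded mRNAs.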

How the data were processed

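The 9 libraries of BV2 RNA (3 for each group) were sequenced after extraction with RNeasy columns and preparation with a SMARTER mRNA kit, per the labels' protocols. FPKM values, 1 for each gene in each library, were deposited by the authors. Submitters' processing notes name the build GRCm38 (mm10); aligner, quantifier and strand setting: not given in the sources used here. FPKM divides by the library total, so an RNA class that takes more of it lowers all others. Whole reads were not recovered, and depth is unknown. No 2 libraries were identical. A second table that bins the same values was not used.

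Genes whose mean over the 9 libraries reached 1 FPKM were tested on log2(FPKM + 0.5) with limma 3.58.1 (R 4.3.3; tables in Python 3.11.15, figures with matplotlib 3.10.9). Group means were fitted over 9 libraries with a mean-variance trend and no covariate. The contrast was two-sided, with Benjamini-Hochberg adjustment over all 11802 genes. The code was tested on simulated data. Groups came from sample titles, identifiers were matched to GENCODE M21 (55154 of 55335), and promoter windows came from RefSeq.

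Named genes were the 12 lowest and 12 highest called changes whose mean in the 6 libraries reached 2 FPKM and whose symbol was not a predicted one, list members past the threshold or otherwise up to 4 with the smallest p or at the ends of the list, and a fixed set that holds the ethanolamine, hypoxia and cytokine genes described; genes outside this rule are named as such. Comparison, members and lists were chosen with earlier results of these data known. A few genes named by that rule are left out here. The settings varied were the pseudocount (0.1 or 1), the filter (none, or 5 FPKM), the scaling (median-of-ratios, or to a total that leaves out ribosomal RNA-like and mitochondrial transcripts), only the 6 libraries, the replicate number as a block, no trend, array weights and each library left out.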

Additional observations from a re-analysis of the deposited data

How the results depend on the processing

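Against 67 genes (14 higher, 53 lower), limma called 40 (5 and 35) with no filter, of which 26 were shared, and 6 (0 and 6) in the 6 libraries alone, of which 4 were shared. Without the mean-variance trend 7 were higher and 48 lower, and after rescaling to a total that leaves out ribosomal RNA-like and mitochondrial transcripts 5 and 70. Leaving out 1 library at a time gave 0 to 38 genes in all, 0 to 4 higher and 0 to 35 lower. The 0 came without hypoxia library 3, with 1709 genes at an unadjusted p under 0.05. With the replicate number as a block 0 genes passed (0 higher, 0 lower; 1629 at an unadjusted p under 0.05). Whether equal numbers mark samples handled together is not stated by the labels. Deviations of same-numbered libraries correlated at -0.12, -0.09 and -0.10, and 0 of 6 libraries correlated best with their own number. With 3 libraries in each group these values cannot settle it. Counts under pseudocounts of 0.1 and 1, the 5 FPKM filter, median-of-ratios scaling and array weights were 52 to 75. No scaling moved the median of all genes by more than 0.05.

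The sign of the log2 change turned, without a call, for Ak4 (-0.22 to 1.04 with 1 library left out), Bnip3 (-0.023 rescaled, -0.021 to 0.10 with 1 library left out), Pisd (-0.032 rescaled, -0.013 to 0.053 with 1 library left out), Selenoi (-0.016 rescaled, -0.092 to 0.14 with 1 library left out), Slc2a1 (-0.089 to 0.0097 with 1 library left out), Tlr4 (-0.027 to 1.12 with 1 library left out); the cause was not tested.

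Of values for single named genes, 1912 kept direction and side of the threshold, 452 lost the call and 19 gained it. Medians of lists kept their sign in every setting except ATF4, hypoxia-inducible factor, antigen presentation, JAK-STAT, cytokine, ethanolamine, glycolysis, recombination, lysosome, autophagy, nitric oxide and prostaglandin genes, all near 0. Depth is unknown, and changes under 0.31 did not pass for any gene.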

Other observations

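Classes of transcripts that do not code for protein differed in direction. Of 162 tested long intergenic RNAs 29 were lower and 5 higher without overlap (median -0.10), of 131 antisense RNAs 25 and 5 (median -0.13), and of 57 transcripts that GENCODE marks as still to be experimentally checked 20 and 0 (median -0.23). Processed pseudogenes (1099 tested, 40 lower and 80 higher, median 0.04), transcribed processed pseudogenes (46 tested, 3 and 5, median 0.06) and mitochondrial transfer RNAs (22 tested, 1 and 7, median 0.33) lay above 0, and small nuclear RNAs had a median of 0.50 over 27 genes with 3 lower and 0 higher. Among 9821 protein coding genes 1135 were lower and 1116 higher without overlap (median 0.02). These classes were chosen after their values were seen and were not tested as groups. Over all tested genes 11.2% were lower and 10.5% higher without overlap.

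Some genes had wide swings between libraries of 1 group. Ak4, an adenylate kinase gene, read 9.66, 8.96 and 53.9 FPKM with ethanolamine and 13.7, 9.91 and 9.52 in hypoxia alone, and the lipopolysaccharide receptor gene Tlr4 read 6.69, 7.22 and 8.13 FPKM with ethanolamine, 8.24, 1.28 and 6.77 in hypoxia alone and 5.63, 7.400 and 1.62 in control. Atf4 read 115, 65.4 and 123 FPKM with ethanolamine and 72.1, 68.5 and 70.9 in hypoxia alone. Arg1, an arginase gene of macrophages, was below the level for testing, at 1.39, 0.888 and 2.21 FPKM with ethanolamine, 1.70, 1.13 and 1.62 in hypoxia alone and listed at 0 in the 3 controls.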
